A study of Mus musculus with 9 samples.

Results

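The genes described here encode the proteasome, the protease complex that degrades ubiquitin-tagged proteins. They were taken by symbol from the protein-coding genes of the mouse mm9 annotation, as every symbol that starts with Psma, Psmb, Psmc or Psmd followed by a digit, other than Psmb8 and Psmb9. This rule gave 38 genes of 22238 protein-coding genes. It used no measured value. The rule also catches Psmc3ip, which encodes a cofactor of meiotic recombination and no proteasome subunit, and 3 assembly chaperones, Psmd5, Psmd9 and Psmd10.

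H3K27ac, an acetylation of histone H3 found at active promoters and enhancers, was mapped with ChIP-seq in mouse spleen cells sorted as naive CD8+ T cells, GFP+ TCRbeta+ CD62Lhi CD44lo-med CD8+ cells. WT mice (4 samples) were hCD2-Cre+ Rosa26 GFP with intact Tcf7 and Lef1, and dKO mice (3 samples) were hCD2-Cre+ Rosa26 GFP with both genes floxed (labelled Tcf1-/-Lef1-/-), so both groups carried the Cre transgene and the GFP reporter. The hCD2-Cre transgene acts mostly in mature T cells, and GFP marks the cells in which Cre was active. Mice were 6 to 12 weeks old and of both sexes, and each genotype also had 1 input sample without values of its own. The replicates of a genotype were pooled before islands, the stretches enriched for H3K27ac, were called. The values are therefore 1 list of islands per genotype, with 65563 islands and 82668007 counts in WT and 82213 islands and 57665047 counts in dKO, and no test between genotypes could be made. The intervals given below are 95% Wilson intervals that cover counting error only. Spread between mice is not seen in pooled lists, and without molecular identifiers several reads may come from 1 molecule.

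A gene was given all islands that lay within 1 kb of a transcription start site (TSS) of its protein-coding transcripts. Counts were scaled to 1000000 island counts of their list (CPM). Depth is the scaled count per kb of island, and every ratio is the log2 of dKO to WT. All 9 markers of CD8 T cells that were listed for a check of the labels had islands in both lists, with 1322 CPM summed over their islands in WT and 1395 in dKO. Their ratios by counts ran from -1.43 (Cd8a) to 2.09 (Thy1), between islands of unlike width. Cd8a had 65 kb in WT, shared with Cd8b1 and Smyd1, and 27.2 kb in dKO, with a ratio by depth of -0.17. Thy1 had 12.6 kb in WT and 57.8 kb in dKO, with a ratio by depth of -0.11. Of the markers of other cells, 4 of 5 for B cells (284 and 380 CPM), 1 of 2 for NK cells (49.9 and 64.3 CPM), 4 of 5 for myeloid cells (116 and 101 CPM in the WT and dKO lists), 1 of 3 for erythroid cells (6.23 and 3.82 CPM) and both for CD4 T cells (59.0 and 69.0 CPM) had islands in both lists. Pax5, Ncr1, Hba-a1 and Hbb-b1 had none in either. The B cell sums hold islands shared with other genes and cannot be given to the markers alone. The Cd79a island (12334 counts in WT and 7414 in dKO) was shared with Arhgef1 and Rps19 in both lists. In dKO the Cd79b island (10954 counts over 71.2 kb) was shared with 2310007L24Rik, Gh and Scn4a. The myeloid gene S100a8 had an island in dKO only (147 counts), which the myeloid sum of the dKO list includes. An island is not a measure of expression, and the part of other cells in the values below was not tested. Islands at the targeted genes remained in the dKO list, which does not check the deletion itself. At Tcf7 the ratio was -0.94 by counts and 0.38 by depth, over 70 kb in WT and 28 kb in dKO. At Lef1 it was -1.74 by counts and -0.34 by depth, over 104.4 kb in WT and 39.6 kb in dKO.

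The proteasome consists of a barrel-shaped core particle, 20S, capped by a regulatory particle, 19S. The outer rings of the core are built of alpha subunits, which gate the entrance, and the inner rings of beta subunits, some of which carry the active sites. The 19S base unfolds substrates with a ring of ATPases and feeds them into the core, and the 19S lid removes ubiquitin. Peptides made by the proteasome are loaded onto MHC class I, which CD8 T cells read on other cells. In cells exposed to interferon-gamma, and in many immune cells, Psmb8, Psmb9 and Psmb10 replace the standard catalytic subunits.

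The promoters of 5 members are shown because the results below turn on them or because they hold the letters of a motif relevant to these genes or to Tcf1 and Lef1. They are the bases just before the RefSeq start site (table build GRCm38.p6), placed on mm9 by exact match, and each lay wholly inside an island in both lists. Capitals mark every match to the motifs named after them. Psma2, an alpha subunit with the deepest WT island of all members, has 200 bases shown, at chr13:14705309-14705508 on the + strand. Psmb5 and Psmb6, which encode active-site subunits, have 250 bases each, at chr14:55236833-55237082 on the - strand and at chr11:70338609-70338858 on the + strand. Psmd5, the chaperone with the highest ratio by counts, has 250 bases at chr2:34726483-34726732 on the - strand, and Psmd10 has 150 bases at chrX:137491251-137491400 on the - strand.
Psma2: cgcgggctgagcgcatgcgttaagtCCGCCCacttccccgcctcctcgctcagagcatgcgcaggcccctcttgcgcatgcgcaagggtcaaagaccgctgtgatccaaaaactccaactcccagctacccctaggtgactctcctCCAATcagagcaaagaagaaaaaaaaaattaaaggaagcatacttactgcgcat
Psmb5: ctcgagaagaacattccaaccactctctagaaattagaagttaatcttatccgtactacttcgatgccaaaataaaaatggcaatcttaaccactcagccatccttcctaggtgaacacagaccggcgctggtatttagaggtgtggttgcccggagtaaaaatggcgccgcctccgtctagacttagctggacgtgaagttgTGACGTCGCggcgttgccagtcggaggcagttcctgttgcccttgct
Psmb6: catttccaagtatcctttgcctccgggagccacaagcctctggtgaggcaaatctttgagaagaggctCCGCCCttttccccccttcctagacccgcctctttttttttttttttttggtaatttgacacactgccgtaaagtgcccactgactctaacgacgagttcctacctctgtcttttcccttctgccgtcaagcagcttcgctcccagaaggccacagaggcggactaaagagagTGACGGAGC
Psmd5: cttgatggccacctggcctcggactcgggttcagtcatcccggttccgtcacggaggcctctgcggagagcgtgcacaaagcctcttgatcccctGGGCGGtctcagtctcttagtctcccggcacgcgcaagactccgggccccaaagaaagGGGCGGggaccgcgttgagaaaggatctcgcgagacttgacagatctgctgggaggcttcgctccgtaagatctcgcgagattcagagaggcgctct
Psmd10: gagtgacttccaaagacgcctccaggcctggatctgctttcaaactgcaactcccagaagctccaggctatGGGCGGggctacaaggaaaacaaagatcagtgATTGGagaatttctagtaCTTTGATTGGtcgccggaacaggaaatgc

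Matches were sought on both strands of the 250 bases before to 50 bases after each RefSeq start. The table held 33 promoters for 31 members, and Psma8, Psmb1, Psmb2, Psmb7, Psmc3, Psmd3 and Psmd7 had no entry. TGACNNNGC, the core of the antioxidant response element that CNC-bZIP factors such as Nfe2l1 bind, was found in 5 members (Psmb5, Psmb6, Psmc6, Psmd9 and Psmd12). This is 16.1% of those searched, against 12.4% of 32851 promoters of all genes and 14.3% of the promoters of genes with islands in both lists. In Psmb5 it spanned positions -47 to -39 and in Psmb6 positions -9 to -1, counted with -1 as the last base before the start. CTTTGAT, the letters that Tcf1 and Lef1 favour, was found in Psmd4 and Psmd10 (6.45%, against 3.73% of all promoters and 2.63% of those of genes with islands). CTTTGAA was found in 0 members, against 5.14% of all promoters and 3.51% of those of genes with islands. In Psmd10 the CTTTGAT letters (-29 to -23) overlapped a CCAAT match on the other strand. CCGGAAG, the core bound by ETS factors, was found in 11 members, 35.5% of those searched. The share was 8.86% over all promoters and 16.3% over the 11829 promoters of genes with islands in both lists. The GC box GGGCGG was found in 18 members (58.1%), against 35.7% of all promoters and 59.7% of those of genes with islands. CCAAT was found in 13 members (41.9%, against 37.4% of all promoters and 37.5% of those of genes with islands). GAAANNGAA, a form of the interferon response element, was found in 5 (16.1%, against 8.56% and 7.19%). The antioxidant and GC letters overlapped in 1 member promoter, and the CCAAT and CTTTGAT letters in 2. These are matches of letters, not binding sites.

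All 38 genes had an island within 1 kb of a TSS in WT and in dKO, while 60.0% of all protein-coding genes had islands in both lists. In 33 members this was 1 island in each list. The WT island lay over the 5′ end of all 38 genes and the dKO island over that of 37, the exception being Psma8. Proteasome islands were narrower and deeper than those of genes in general. Their median covered width was 5.3 kb in WT and 4.8 kb in dKO, against 7.0 and 7.4 kb over all 13353 genes with islands in both lists. Their median depth was 5.19 CPM per kb in WT and 4.22 in dKO, against 3.77 and 3.16. The median member stood at the percentile 73.3 of depth among genes with a WT island and at 75.2 among genes with a dKO island. Depth was higher in narrower WT islands (Spearman rho = -0.71 across the 38 members and -0.30 across all genes), so members were also set beside genes of like width. Among WT islands of at most 3 kb, 12 members had a median depth of 6.82 CPM per kb against 4.97 for all genes, and 11 of the 12 lay above the latter. Of the 5 members with over 10 kb of WT islands, 1 lay above the median of all genes of that width (2.88 against 3.14 CPM per kb). Depth in the 2 lists was correlated across the members (Spearman rho = 0.7, n = 38 genes), as it was across all genes (rho = 0.83, n = 13353), where genes share the same libraries and are not replicates.

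**Figure D1:**
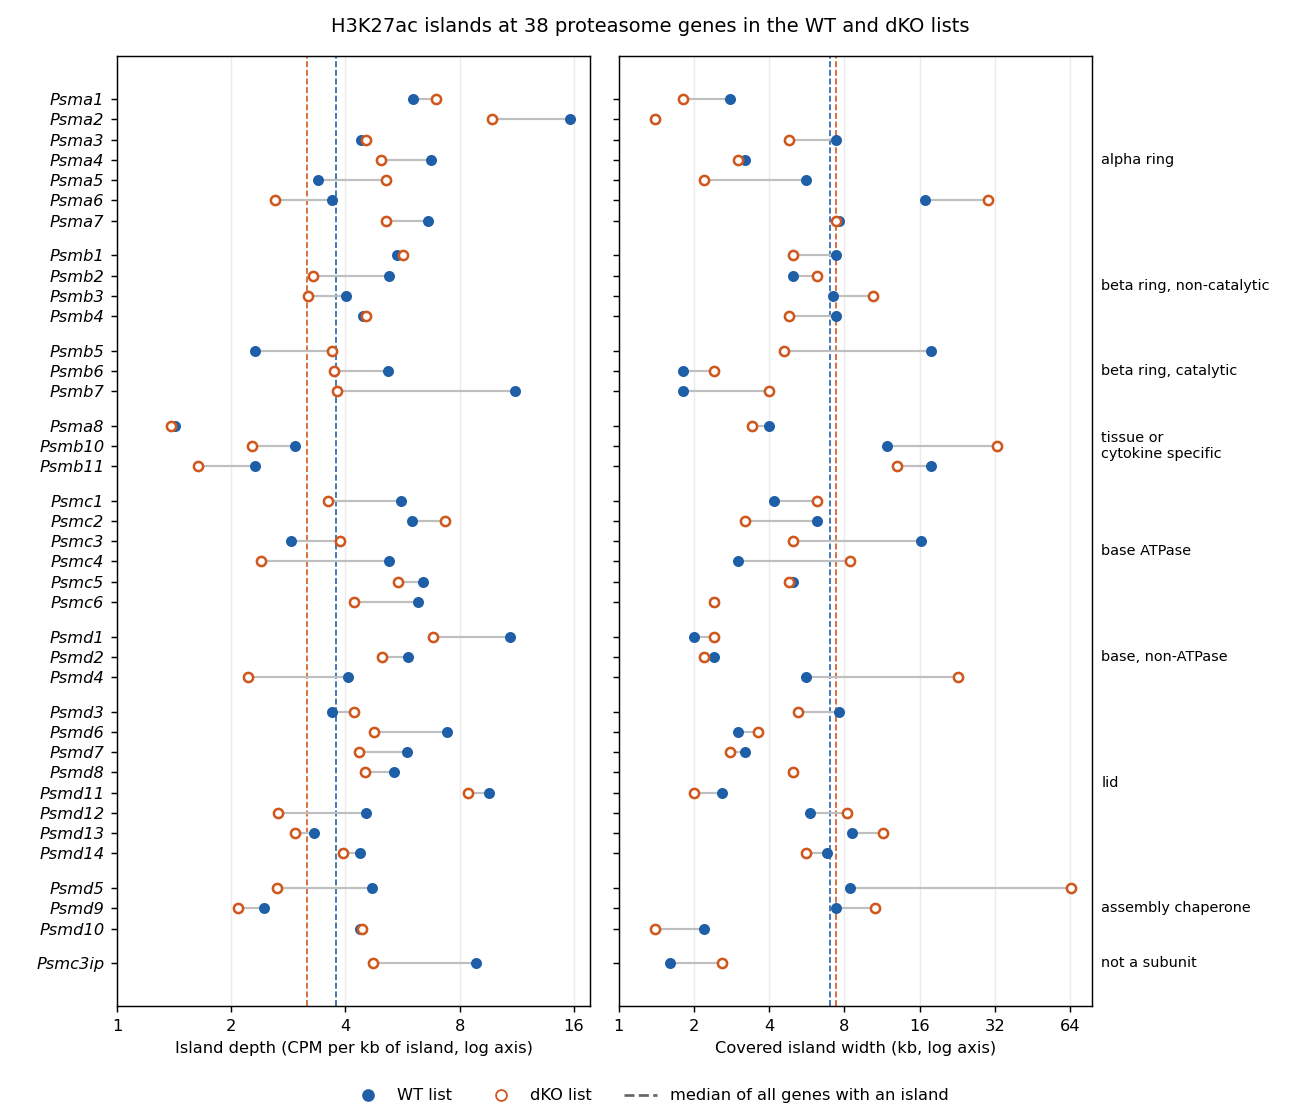
Island depth (left, CPM per kb, log axis) and covered island width (right, kb, log axis) of the 38 genes, grouped by role, with filled blue points for the WT list, open orange points for the dKO list and dashed lines at the medians of all genes with islands in both lists. Most members lie to the right of the dashed lines in depth and to the left in width. Psma8, Psmb10, Psmb11 and Psmd9 lie at the low end of depth in both lists, as do Psmb5 and Psmc3 in WT and Psmd4 in dKO.

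Psma1 to Psma7, the alpha subunits of the standard core, had a median depth of 6.03 CPM per kb in WT and 5.11 in dKO. Psma2 had 1813 counts in WT and 788 in dKO over the same 1.4 kb, chr13:14704801-14706200, which starts and ends at the same windows in both lists. Its depth of 15.7 CPM per kb in WT was the highest of all members, at the percentile 99.6 of all genes, and was 9.76 in dKO, for a ratio of -0.68 (-0.8 to -0.56). The island also spans the start of Mrpl32, a mitochondrial ribosomal protein gene on the opposite strand 217 bp away, so its counts cannot be given to either gene. Psma5 had 1571 counts over 5.6 kb in WT and 651 over 2.2 kb in dKO. Both islands began at the same window 1.24 kb upstream of the gene, and the WT island reached 4.36 kb into it against 0.96 kb in dKO. Its ratio was -0.75 by counts (-0.88 to -0.62) and 0.60 by depth, so the measures had opposite signs. Psma6 had the widest islands of this ring, with 5116 counts over 16.8 kb in WT and 4510 over 30 kb in dKO, and ratios of 0.34 by counts and -0.50 by depth. In WT these were separate islands at the 5′ end (2.58 CPM per kb) and further along the gene (7.21), which the dKO list held as 1. The ratio of Psma6 by counts depended on the islands counted. It was 1.24 with only the gene's 5′ end, 0.97 with islands within 1 kb of each other joined and 0.05 in merged regions. The other members, Psma1, Psma3, Psma4 and Psma7, had ratios by counts between -0.58 and -0.41, and over the 7 genes the median was -0.53.

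Psmb1 to Psmb4, the beta subunits without an active site, had WT islands of 5.0 to 7.4 kb and depths of 4.03 to 5.46 CPM per kb in WT and 3.18 to 5.66 in dKO. Psmb4 had 2717 counts in WT and 1252 in dKO (ratio -0.6, -0.69 to -0.5) with nearly equal depths of 4.44 and 4.52. Psmb3, whose dKO island extended 4.29 kb into the gene against 1.49 kb in WT, was the member of this set with more scaled counts in dKO (ratio 0.19, 0.1 to 0.28), at a lower depth (3.18 against 4.03). Its islands also held Pcgf2, a Polycomb gene.

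The catalytic subunits were unlike each other. Psmb5, with the chymotrypsin-like site, had 3406 counts over 17.8 kb in WT, at chr14:55233601-55251400, and 981 over 4.6 kb in dKO, at chr14:55233401-55238000. The WT island is shared with Psmb11, which encodes the related subunit of cortical thymic epithelial cells and whose start lies 7296 bp away. In dKO the same stretch held separate islands, 1 over the Psmb5 promoter at 3.70 CPM per kb and 1 over Psmb11, with 1222 counts over 13 kb, at 1.63. The WT island as a whole had 2.31 CPM per kb. The ratio by counts was -1.28 (-1.38 to -1.17) for Psmb5, the lowest of all members, and -0.96 (-1.05 to -0.86) for Psmb11, while by depth it was 0.68 for Psmb5, the highest of all, and -0.51 for Psmb11. Over the whole stretch, the lists held 3406 counts over 17.8 kb in WT and 2203 over 17.6 kb in dKO, a ratio of -0.11.

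Psmb7, with the trypsin-like site, had 1671 counts over 1.8 kb in WT and 879 over 4.0 kb in dKO. Its islands ended at the same window 1.01 kb inside the gene, and the dKO island reached 2.99 kb upstream against 0.79 kb in WT. The depth was 11.2 CPM per kb in WT and 3.81 in dKO, for a ratio of -1.56, the lowest by depth of all members, beside -0.41 (-0.52 to -0.29) by counts. Psmb6, with the caspase-like site, had 771 counts over 1.8 kb and 517 over 2.4 kb, the fewest WT counts of the standard subunits of the core, and its ratio of -0.06 by counts had an interval (-0.22 to 0.1) that spans 0.

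Psmb10, a catalytic subunit of the immunoproteasome, had 2876 counts over 11.8 kb in WT and 4270 over 32.6 kb in dKO, shared in both with Ctrl and Lcat, genes of a protease and of a plasma enzyme of cholesterol transport. The WT list held a further island of 15.8 kb (2543 counts, 1.95 CPM per kb) just downstream that was part of the same island in dKO. The ratio was 1.09 by counts (1.02 to 1.16) and -0.38 by depth. Summed over the stretch that the islands of both lists cover, it was 0.18 by counts. Psma8, the alpha subunit of the testis, had the lowest depth of all members in both lists, 1.42 and 1.39 CPM per kb, at the percentiles 1.5 and 1.34 of all genes. WT had an island of 0.8 kb with 129 counts at its 5′ end, where dKO had none. The other islands, of 3.2 kb (340 counts) in WT and 3.4 kb (272 counts) in dKO, lay at an internal TSS.

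Psmc1 to Psmc6, the ATPases of the base, had a median depth of 5.80 CPM per kb in WT and 4.05 in dKO. Psmc6 had the same covered width of 2.4 kb in both lists, with 1230 counts in WT and 584 in dKO and a ratio of -0.55 (-0.7 to -0.41) by either measure. Psmc2, which shares its island with Dnajc2, a ribosome-associated chaperone gene that starts 32 bp away on the other strand, had 3072 counts over 6.2 kb and 1349 over 3.2 kb, with ratios of -0.67 by counts and 0.29 by depth. Psmc4 had 1290 counts over 3.0 kb and 1159 over 8.4 kb, for ratios of 0.37 (0.25 to 0.48) by counts and -1.12 by depth. Psmc3 had 3851 counts over 16.2 kb in WT, most of it upstream of the gene, and 1118 over 5.0 kb in dKO, with ratios of -1.26 (-1.36 to -1.17) by counts and 0.43 by depth. Upstream of it the dKO list held a separate island of 28.4 kb with 3062 counts. With both lists summed over that stretch, the ratio of Psmc3 by counts was 0.42, of the opposite sign.

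Of the other base subunits, the scaffolds Psmd1 and Psmd2 had narrow islands of 2.0 to 2.4 kb in both lists. Psmd1 was among the deepest members, with 10.9 CPM per kb in WT and 6.81 in dKO (1797 and 942 counts, ratio by counts -0.41, -0.53 to -0.3). Psmd2 had 5.86 and 5.01 CPM per kb and a ratio of -0.35 by counts. Psmd4, a ubiquitin receptor, had 1883 counts over 5.6 kb in WT and 2914 over 22.8 kb in dKO, for ratios of 1.15 (1.07 to 1.23) by counts and -0.88 by depth. Its dKO islands were 1 of 12 kb over the promoter, where WT had the promoter island and a separate one of 5.8 kb just upstream (763 counts), and 1 of 10.8 kb near an internal TSS. Summed over the stretch that both lists cover, the ratio was 0.19 by counts.

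The lid genes, Psmd3, Psmd6, Psmd7, Psmd8 and Psmd11 to Psmd14, had ratios by counts between -0.61 and 0.24 with a median of -0.37. The range depends on which islands were counted, since Psmd3, at -0.36 here, was at 1.46 with the TSS of every transcript and at 1.35 with islands within 5 kb. Psmd7 was lowest, with 1541 counts over 3.2 kb in WT and 702 over 2.8 kb in dKO (-0.61, -0.74 to -0.49). Psmd8 had 5.0 kb in both lists, 2215 and 1300 counts, and a ratio of -0.25 (-0.35 to -0.15). Psmd14, the deubiquitinase of the lid, had 2461 and 1276 counts, a ratio of -0.43 (-0.53 to -0.33) by counts and -0.15 by depth, summed over an island at the 5′ end and a small internal one (234 counts in WT and 255 in dKO). At the 5′ end alone the counts were 2227 and 1021, with ratios of -0.61 by counts and 0.33 by depth. Psmd13 was the lid gene above 0, at 0.24 (0.16 to 0.33), with an island shared with Sirt3, a mitochondrial deacetylase gene that starts 99 bp away.

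Psmd5, a chaperone of base assembly, had the highest ratio by counts and the widest island of all members. It had 3274 counts over 8.4 kb in WT and 9860 over 64.6 kb in dKO, a ratio of 2.11 (2.05 to 2.17), with depths of 4.71 and 2.65 CPM per kb (ratio -0.83). The main dKO island, chr2:34722001-34784600, covered the same stretch as 3 WT islands, the promoter island and those of 34.4 kb (5904 counts) and 18 kb (4612 counts) upstream, with the start of Phf19 inside it. Summed over that stretch and a small dKO island near an internal TSS, the counts were 13790 in WT and 9860 in dKO, a ratio of 0.04. Psmd10, on the X chromosome (the share of each sex in the pools is not given in the sources used here), had 796 and 358 counts (-0.63, -0.81 to -0.45) and nearly equal depths of 4.38 and 4.43 CPM per kb, while Psmd9 had 1492 and 1271 counts (0.29, 0.18 to 0.4). Psmc3ip had 1170 counts over 1.6 kb and 708 over 2.6 kb, with ratios of -0.21 by counts and -0.91 by depth.

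**Figure D2:**
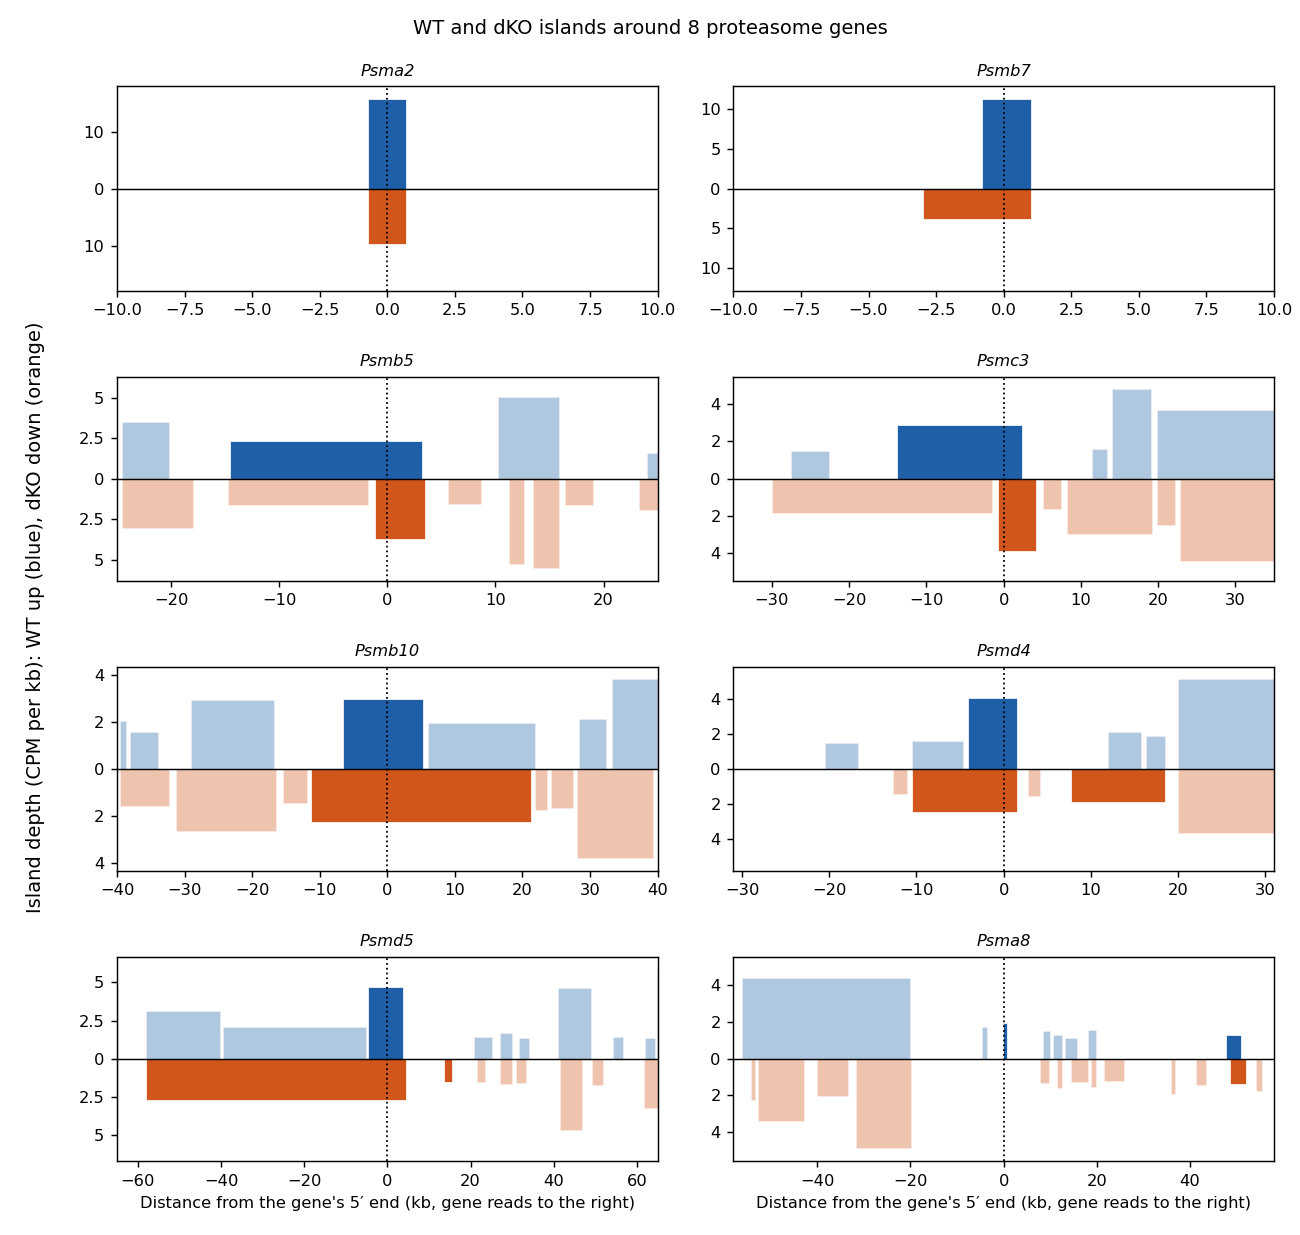
Islands within reach of 8 members, drawn by distance from the gene's 5′ end in kb (the gene reads to the right) and by depth in CPM per kb, WT upward in blue and dKO downward in orange, with full colour for islands within 1 kb of a TSS of the gene and pale colour for the rest. Psma2 has islands with the same borders in both lists, Psmb5 and Psmc3 have a wide WT island where dKO has separate ones, and Psmb10, Psmd4 and Psmd5 have a wide dKO island where WT has separate ones.

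Over all members, the median ratio by counts was -0.39 with quartiles of -0.58 and -0.11, against -0.25 with quartiles of -0.53 and 0.12 for all 13353 genes with islands in both lists. The median ratio by depth was -0.36 against -0.2, and that of the covered width was -0.02 against 0.01. Ratios by counts were below 0 in 30 of 38 members, and in 68.6% of all genes. A ratio of at least 1.5-fold by counts was reached by 3 members with more in dKO (Psmd5, Psmd4 and Psmb10), against 12.3% of all genes, and by 9 with less (Psmb5, Psmc3, Psmb11, Psma5, Psma2, Psmc2, Psmd10, Psmd7 and Psmb4), against 20.8%. By depth, 2 members were higher in dKO (Psmb5 and Psma5), against 2.27% of all genes, and 11 were lower, against 17.4%. These were Psmb7, Psmc4, Psmc3ip, Psmd4, Psmd5, Psmd12, Psma2, Psmd1, Psmb2, Psmd6 and Psmc1. Since the median gene was itself below 0, ratios were also taken relative to it, a shift of 0.25 by counts and 0.20 by depth. The median of the members was then -0.15 by counts and -0.16 by depth, with 27 and 24 of 38 below 0. The members past 1.5-fold were then 5 higher and 3 lower by counts, against 17.6% and 10.1% of all genes, and 3 higher and 5 lower by depth, against 5.39% and 8.75%. With no replicates, these shares are a description of the 2 lists.

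**Figure D3:**
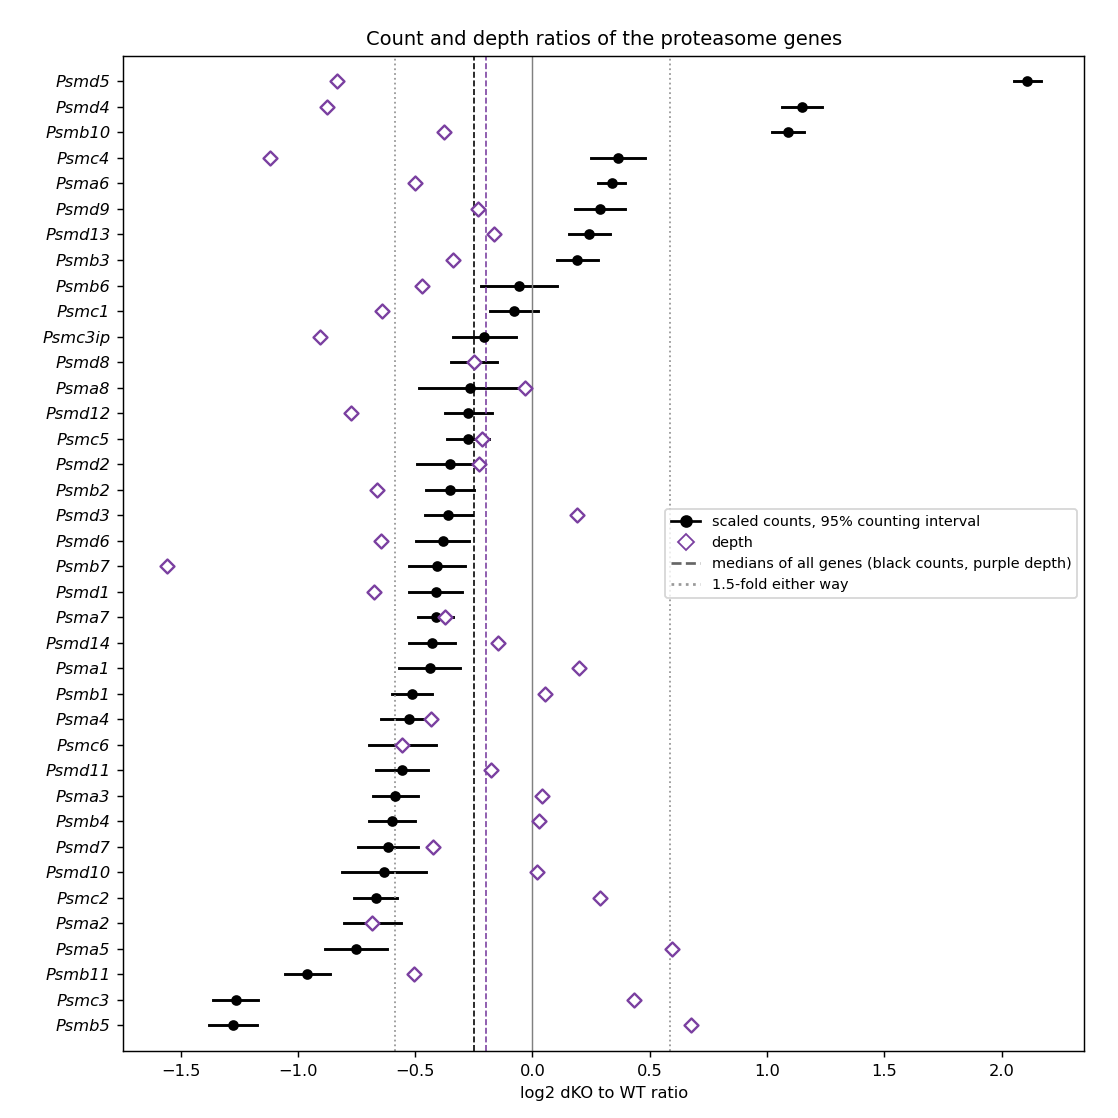
Log2 dKO to WT ratio of each member by scaled counts (black points with 95% counting intervals) and by depth (open purple diamonds), ordered by the former, with dashed lines at the medians of all genes and dotted lines at 1.5-fold either way. Most members lie below 0 by counts. Psmd5, Psmd4 and Psmb10, the highest by counts, lie below 0 by depth, and Psmb5 and Psmc3, the lowest by counts, lie above 0 by depth.

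Across the 38 genes the ratio by counts and the ratio of widths were correlated (Spearman rho = 0.85), as they were across all genes (0.86), and the ratio by depth went the other way (-0.84, and -0.54 across all genes). Counts grow with width by construction, and depth is counts divided by width. In 9 members, the covered width differed by at most 400 bp, which is 2 windows of the island caller: Psma2, Psma4, Psma7, Psmc5, Psmc6, Psmd1, Psmd2, Psmd7 and Psmd8. All 9 were below 0 by counts, as were 89.7% of the 2620 genes of like kind. They ran from -0.68 at Psma2 to -0.25 at Psmd8, with a median of -0.41, against -0.34 over the 2620 genes. Of these 9, 2 were lower by 1.5-fold (Psma2 and Psmd7), against 9.81% of the 2620 genes, and 0 were higher, against 0.0382%. A like width is not always the same stretch. The islands of Psmc5 were shifted between the lists. Its ratio by counts of -0.28 was -0.02 with both lists summed over the stretch that their islands cover.

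The borders of single islands bear less on the count ratio when both lists are summed over the regions made by merging islands that overlap. There the median was -0.28 over the members and -0.18 over all genes. By that measure 0 members were higher by 1.5-fold, against 3.63% of 13624 genes, and 4 were lower (Psma2, Psma5, Psmd7 and Psmd10), against 10.7%. The ratios of the 38 genes then ran from -0.75 (Psma5) to 0.42 (Psmc3), where by single islands they ran from -1.28 to 2.11.

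**Figure D4:**
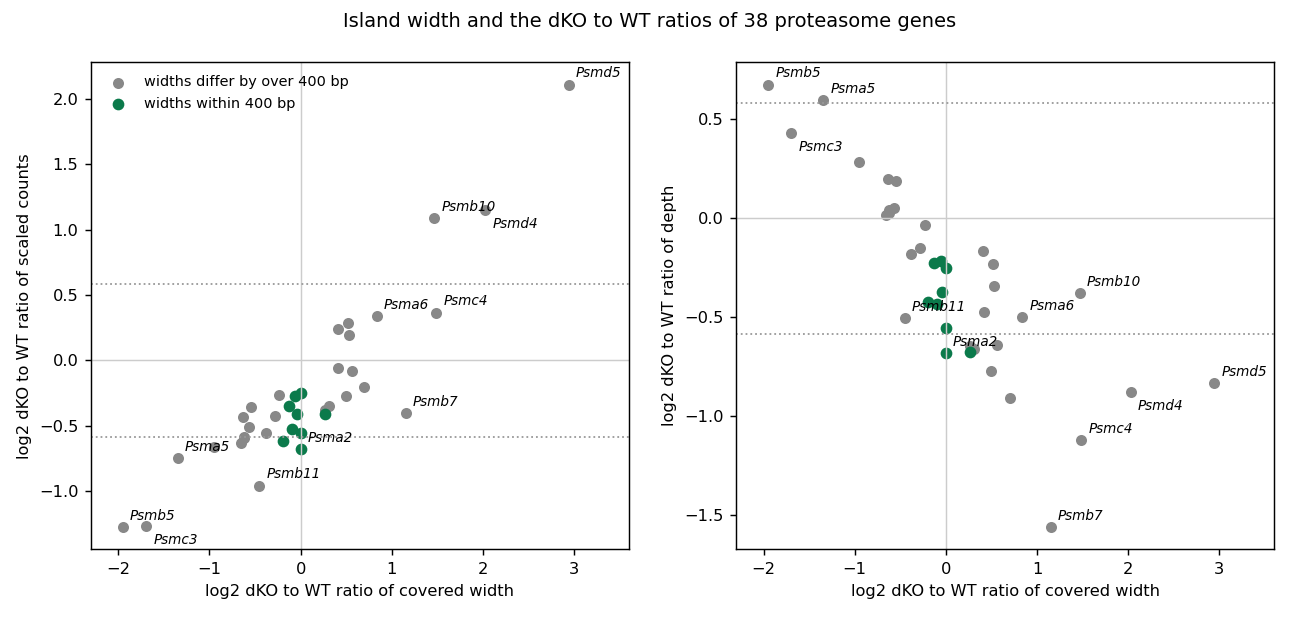
Log2 dKO to WT ratio of covered width (x axis) against that of scaled counts (left) and of depth (right) for the 38 genes, with dotted lines at 1.5-fold either way and green points for the 9 genes whose widths differ by at most 400 bp. Points climb from lower left to upper right by counts and descend by depth, and the green points lie below 0 in both panels.

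In 13 of the 38 genes (34.2%) an island was shared with the start of another protein-coding gene, which was so for 34.3% of all genes with islands in both lists. Psma2, Psma4, Psma7, Psmc2, Psmc5, Psmd10 and Psmd13 had a partner on the opposite strand within 217 bp, at distances of 32 bp (Dnajc2 at Psmc2) to 217 bp (Mrpl32 at Psma2). Psmb1 shared its islands with Tbp, the gene of the TATA-binding protein, 1612 bp away. The counts of such islands belong to both genes. The 25 members without a partner had a median ratio of -0.36 by counts and -0.42 by depth, and by counts 1 was higher and 4 were lower by 1.5-fold, against 12.3% and 20.8% of all genes. Those shares of all genes include genes that share islands.

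Of the further genes of the pathway reported here, 27 were in the annotation, and all 27 had islands in both lists, with median ratios of -0.30 by counts and -0.41 by depth. Of these, 5 were lower by 1.5-fold in dKO by counts, against 20.8% of all genes, and 8 by depth, against 17.4%. Lower by counts were Shfm1, a small lid subunit (-0.83), the polyubiquitin gene Ubb (-0.76), the assembly chaperone gene Psmg3 (-0.65), the ubiquitin-activating enzyme gene Uba1 on the X chromosome (-0.64) and Ngly1, which deglycosylates Nfe2l1 (-0.59). Ubb and Psmg3 had narrower islands in dKO and higher depths there, with ratios by depth of 0.50 and 0.46. Shfm1 had 1960 counts over 1.8 kb in WT and 771 over 1.6 kb in dKO, and was also lower by depth (-0.66). The other genes lower by depth were AI314180 (-1.92), the assembly genes Psmg2 (-1.21), Pomp (-0.99) and Psmg4 (-0.93), Nfe2l1, Vcp and Usp14.

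The immunoproteasome genes Psmb8 and Psmb9 share an island with Tap1, the peptide transporter gene, with 6438 counts over 19.6 kb in WT and 3640 over 17 kb in dKO (ratio -0.30 by counts and -0.10 by depth). Psme1 and Psme2, the activator that caps the core in interferon-exposed cells, share a WT island of 23.6 kb with 6837 counts. Fam158a, Fitm1 and Rnf31 share it too. In dKO, Psme1 had 6256 counts over 35.2 kb and Psme2 5861 over 31.4 kb, with Irf9 among the genes that share these islands. The ratios of Psme1 and Psme2 were 0.39 and 0.30 by counts and -0.19 and -0.11 by depth. Nfe2l1, the transcription factor that raises proteasome genes when the proteasome is impaired, had 3189 counts over 8.8 kb in WT and 2477 over 16 kb in dKO, with ratios of 0.16 by counts and -0.71 by depth. The genes of this paragraph lay in wider islands than most members, whose median WT width was 5.3 kb.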

How the data were processed

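H3K27ac ChIP-seq reads of naive CD8+ T cells (WT, 4 samples; dKO, 3 samples) were aligned by the authors to mm9 with Bowtie2 2.2.5, filtered for unique mapping (MAPQ above 10), pooled by genotype and turned into islands with SICER 1.1 (window 200 bp, FDR below 0.01, gap 400 bp). The deposited values are counts of reads per island, not scaled for depth or width. Whether duplicate reads were removed is not given in the sources used here. Stretches outside islands carry no value, which is not the same as 0 counts. The 2 input samples had no values of their own.

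Genes and start sites came from the GENCODE vM1 annotation of NCBIM37, the same build, and all island chromosomes matched its names and lengths. Counts were scaled to the island total of their list, and a ratio of 1.5 either way was called, with Python 3.11.15, numpy 2.4.6, pandas 2.3.3 and scipy 1.17.1. With 1 list per genotype no test was run. The steps were tested on simulated data. For the ratios, the simulated dKO islands kept the borders of the WT islands, so splits, fusions and changes of width were not covered. Promoter sequences came from RefSeq (GRCm38.p6).

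The members and gene lists were chosen with earlier results of these data known. The genes given in full are the catalytic and the tissue-specific subunits, the 3 highest and 3 lowest members by count ratio, depth ratio and WT depth, the widest islands and, of the pathway, the genes past the ratio with Psmb8, Psmb9, Psme1, Psme2 and Nfe2l1. Of the pathway list, 1 gene is not reported here and is left out of its counts and medians. Others among the members were named to give each role its values, after they were seen. Alternatives changed the distance to the TSS, the TSS set, the island filter and joining, merged regions, scaling, the ratio called and the genes included.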

Additional observations from a re-analysis of the deposited data

How the results depend on the processing

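No paired analysis was possible because the replicates were pooled before islands were called, and leaving out a replicate was not possible for the same reason. All 38 members kept islands in both lists under the distance, filter, joining and merging alternatives, except that 1 had none in dKO when only the gene's 5′ end was used. Both medians stayed below 0 under every alternative run. So did those of all genes, other than when scaled by the median ratio, which sets them to 0. The median ratio by counts (-0.39) was -0.25 with islands within 5 kb of a TSS, -0.27 with islands within 1 kb of each other joined, -0.28 in merged regions and -0.15 scaled by the median ratio, which also gave -0.16 by depth. Over all genes the median by counts was -0.17 within 5 kb, -0.16 joined and -0.18 merged. Members higher in dKO by counts (3) numbered 5 with the TSS of every transcript, 6 within 5 kb, 7 joined, 0 merged, 5 scaled by the median ratio, 5 at the smallest ratio tried, and 1 without members that share an island. The share of all genes higher by counts moved too, to 13.1% with the TSS of every transcript, 13.2% within 5 kb, 18.0% joined, 3.63% merged, 17.6% scaled by the median ratio and 18.0% at the smallest ratio tried. Members lower by counts (9) numbered 4 joined, 4 merged, 3 scaled by the median ratio, 23 at the smallest ratio tried, 2 at a ratio of 2, and 4 without shared islands, where the shares of all genes were 18.0% joined, 10.7% merged, 10.1% scaled by the median ratio, 43.3% at the smallest ratio tried, 6.92% at a ratio of 2 and 20.7% for the last. Members higher by depth (2) numbered 1 within 5 kb, joined, merged or without shared islands, and 0 at a ratio of 2 (1.36%, 2.22%, 0.543%, 2.26% and 0.404% of all genes), and those lower by depth (11) numbered 5 scaled by the median ratio, 20 at the smallest ratio tried and 2 at a ratio of 2, against 8.75%, 37.3% and 4.10% of all genes. Without shared islands 25 members had islands in WT and 25 in dKO. The shares of all genes given beside that setting leave out only the members that share an island, and keep other genes that do. The median width in WT (5.3 kb) was 5.6 kb on autosomes only, 5.0 kb where islands cover a TSS, reach 3 CPM or lie at the 5′ end, 6.5 kb within 5 kb, 6.0 kb joined, 5.9 kb merged and 4.2 kb without shared islands, and in dKO (4.8 kb) it was 8.2 kb within 5 kb, 8.1 kb joined and 6.2 kb merged.

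Chosen after the data were seen, the set of genes with widths within 400 bp gave 0 higher and 2 lower by counts, 0 and 2 by depth, and median widths of 3.2 and 2.8 kb, since it holds only 9 members, and leaving out Psma8, Psmb11, Psmc3ip and the assembly chaperones left 32 members with 2 higher and 7 lower by counts, 2 and 9 by depth, and medians of -0.41 and -0.36. The sign of the ratio by counts was kept by 34 of 38 members within 5 kb, 35 joined and 37 merged. By depth it was kept by 27, 32 and 33. Among single genes, the ratio of Psmc3 by counts turned to 0.71 within 5 kb, 2.65 joined and 0.42 merged. That of Psmc1 turned from -0.08 to 0.26 both within 5 kb and joined. Psmd3 turned from -0.36 to 1.35 within 5 kb and 1.46 with the TSS of every transcript, and Psmc3ip from -0.21 to 1.2 within 5 kb and 2.03 joined. Psma6, Psmb3 and Psmd13 kept their sign but reached 1.24 (only the gene's 5′ end), 1.53 (TSS of every transcript) and 1.85 (joined). By depth, Psmb5 turned to -0.093 within 5 kb, -0.14 joined and -0.093 merged, and Psmd1 to 0.39 within 5 kb, while Psmc2 turned to -0.81, Psmb4 to -0.74 (both joined) and Psmd3 to -0.81 (TSS of every transcript). Which islands a gene was given, and how islands were joined or merged, thus moved these ratios by more than counting error. The median half-width of that error was 0.10 on the log2 scale.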

Other observations

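The other large complexes that every cell uses and that were listed for comparison also had islands in both lists at every gene. The 8 genes of the CCT chaperonin, which folds actin and tubulin, had a median depth of 8.34 CPM per kb in WT and 4.83 in dKO, median ratios of -0.41 by counts and -0.54 by depth, and 0 higher and 0 lower by 1.5-fold by counts, where 12.3% of all genes were higher and 20.8% lower. The 9 genes of the COP9 signalosome, a complex related to the proteasome lid, had median depths of 4.39 and 4.19, medians of -0.33 and -0.42, and 0 higher and 3 lower. The 13 genes of initiation factor 3 had median depths of 5.59 and 3.81, medians of -0.25 and -0.38, and 0 higher and 4 lower. The proteasome genes, with medians of -0.39 and -0.36, lay within the range of these sets by counts and just above them by depth.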
